A study of Mus musculus with 30 samples.

Results

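The cytosolic ribosomal protein genes were described across 30 libraries of MC38 tumours. They were taken as the rows whose symbol has the form of a mouse cytosolic ribosomal protein (Rps, Rpl, Rplp or Rpsa), whose description says ribosomal protein and neither pseudogene nor kinase, and whose mean was at least 10 counts per library. The rule kept 83 genes of 24552 rows, 33 of the small and 50 of the large subunit. It does not use a gene's response, but it was set with earlier results of these data known. Of 85 rows with a fitting symbol and description, Rpl26 with a mean of 0.03 counts and Rpl10l with 0.13 counts fell under the minimum. Just inside it lay Rpl3l with 27.0 counts, Rpl39l with 28.0 and Rpl30 with 34.4. All 83 passed the low-count filter used for testing.

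Each cytosolic ribosome joins a small subunit, which reads the messenger RNA, to a large subunit, which forms the peptide bond, and each subunit carries ribosomal RNA and a set of proteins made from one messenger each. Growing cells make these proteins in matched amounts, and their messengers typically begin with a run of pyrimidines, the terminal oligopyrimidine or TOP motif, through which mTOR signalling governs their translation. A few members have paralogs of restricted expression, such as Rpl3l in striated muscle and Rpl39l in germ cells, and free Rpl5 and Rpl11 bind Mdm2, the ubiquitin ligase of p53.

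MC38 is a mouse colon adenocarcinoma line. The cells were grown under the skin of female C57BL/6J mice aged 10 weeks, and mice were dosed once into a vein when tumours measured 200 to 300 mm3. One arm received vehicle, one mXTX301, a masked mouse surrogate of an interleukin-12 drug, at 0.39 mg/kg, and one an unmasked positive control at 0.03 mg/kg. Interleukin-12 is a cytokine that drives interferon-gamma production by T and natural killer cells. Tumours were taken on day 4 or day 7, with 5 mice in each of the 6 groups, and polyadenylated RNA was sequenced from whole tumour tissue. All groups share the line and the strain, and the doses of the active arms differ.

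Library totals lay between 48.3 and 85.2 M counts, and 15482 genes entered the tests. T-cell markers were higher than vehicle with both drugs (12 of 12 genes with mXTX301 at either day, 11 and 12 of 12 with the unmasked control at day 4 and day 7), and macrophage markers were higher in 8 and 12 of 12 with mXTX301 and in 2 and 10 of 12 with the unmasked control. Summed T-cell markers spanned 10.7 to 16.5 CPM (the count relative to normalised library size) in the day 4 vehicle libraries and 29.3 to 138 with mXTX301 at that day. Of the B-cell markers, Ms4a1 and Blk were near zero, as was Cldn7 among the tumour epithelium markers. In 11 libraries, spread over all 6 groups, skin epithelium markers stood more than 2 log2 units above the median library. In bulk tissue, fewer cells of a type and less RNA per cell cannot be told apart.

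The start sites of 62 of the 83 members could be matched to RefSeq promoters (GRCm38.p6, the same coordinates as the mm10 build of the counts). The sequences below, 15 bases on either side of the annotated start, belong to genes named in the results. They show how members differ around the annotated start, near which a TOP motif would lie. The starts were annotated and not measured, so a window without a run does not show that a TOP motif is absent. Capitals mark a run of at least 6 pyrimidines.
Rpl18, chr7:45718056-45718085, plus strand: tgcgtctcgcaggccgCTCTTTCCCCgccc
Rpl27a, chr7:109519180-109519209, plus strand: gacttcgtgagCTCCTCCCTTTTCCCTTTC
Rplp2, chr7:141447636-141447665, plus strand: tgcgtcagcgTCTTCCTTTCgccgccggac
Rps2, chr17:24720048-24720077, plus strand: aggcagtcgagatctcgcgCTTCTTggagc
Rpl41, chr10:128549154-128549183, minus strand: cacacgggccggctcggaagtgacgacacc
Rplp0, chr5:115559452-115559481, plus strand: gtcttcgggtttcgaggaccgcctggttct
Rpl36a, chrX:134585639-134585668, plus strand: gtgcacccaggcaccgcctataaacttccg
Rpl7l1, chr17:46782642-46782671, minus strand: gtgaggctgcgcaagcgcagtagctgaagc

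A run of at least 6 C or T on the gene's strand lay within that window in 38 of 62 members, 61.3%, against 32.7% of the 27025 genes with a promoter. A C followed by at least 5 pyrimidines, which overlaps that run, was found in 36 of 62, 58.1%, against 25.5%. In the 250 bases upstream, CCGGAAG on either strand, the core of ETS-type sites, was found in 19 of 62 members, 30.6%, against 7.83% of all genes. CACGTG, the E-box bound by MYC, was found in 5 of 62, 8.06%, against 6.86%. Among the genes printed, Rplp0, Rpl41, Rpl36a and Rpl7l1 held no such run in this window.

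The 83 genes took 6.72% to 9.56% of all counts in the day 4 vehicle libraries, with a mean of 7.61% ± 1.12 (SD, n = 5). They took 6.48% ± 0.347 with mXTX301 and 7.34% ± 0.581 with the unmasked control at day 4. At day 7 the shares were 6.70% ± 0.354 in vehicle, 6.97% ± 0.482 with mXTX301 and 6.40% ± 0.442 with the unmasked control (n = 5 each). One library stood apart: vehicle replicate 5 at day 4 held 9.56%, while the other 4 of its group held 6.72% to 7.39%. It was the highest of its group in 78 of the 83 genes and the highest of all 30 libraries in 76, so the counts of members that rest on it, and the day 4 calls that are lost without it, are given with and without it.

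**Figure D1:**
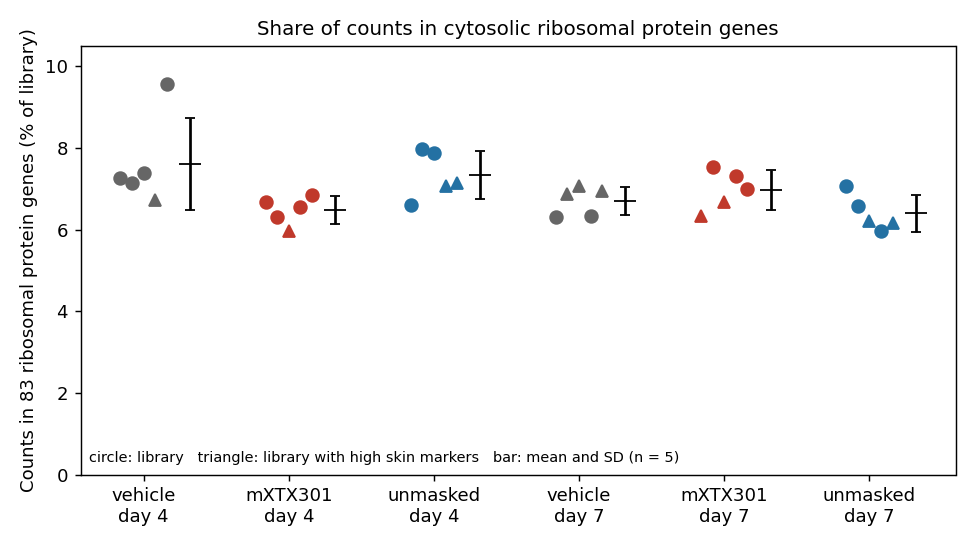
Share of each library's counts in the 83 ribosomal protein genes (vertical axis, percent) for the 6 groups; points are libraries, triangles are libraries with high skin markers, and bars are the mean and SD of 5 libraries. Vehicle replicate 5 at day 4 lies at 9.56%, above all 29 others.

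In that library the mitochondrial ribosomal protein genes summed to 4281 CPM against 3337 to 3741 in the other 4 day 4 vehicle tumours, while its ribosome biogenesis genes summed to 7382 CPM against 7421 to 9132 in the others. Its skin markers, at 12.6 CPM, lay inside the range of 7.69 to 135 of the others. Its tumour epithelium markers summed to 50.7 CPM against 25.8 to 43.3 in the others. Their mean log2 level of -0.53 lay inside the others' range of -1.45 to -0.30. Most of such a sum is Itgb4, with a mean of 35.3 CPM in the day 4 vehicle group. In that group Cdh1 stood at 1.89, Krt20 at 0.743 and Epcam at 0.131 CPM. The part of these features in the results was not tested. The balance of the subunits moved little: counts of small-subunit genes were 0.681 to 0.697 times those of large-subunit genes by group mean.

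Levels differed widely between members once divided by transcript length. Averaged over the groups, Rplp1 stood at 2659 CPM per kilobase, Rplp0 at 2419, Rps2 at 2357 and Rps18 at 2242, while the stalk protein Rplp2 stood at 688. At the other end were Rpl3l at 0.322, Rpl39l at 0.572, Rpl30 at 0.629, Rps27 at 4.67 and Rpl34 at 8.67 CPM per kilobase. Rpl30, Rps27 and Rpl34 encode core ribosomal proteins, and their counts are low here although Rps27l, the paralog of Rps27, stood at 189 CPM per kilobase. Of the possible 50-base stretches of the Rps27 transcript, 98.6% also occur in transcripts of other genes, and for Rpl30 the share was 79.2%, but for Rpl34 it was 37.9%. Well counted members can share as much, such as Rpl5 with 93.8% at 725 CPM per kilobase and Rpl9 with 93.3% at 1160. Over the 82 members with an annotated transcript the median was 49.3%. The part of shared sequence in the low counts was not tested.

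At day 4 mXTX301 tumours had lower counts of ribosomal protein genes than vehicle tumours. Of the 83 genes 52 fell and 0 rose at an adjusted p under 0.05 (edgeR quasi-likelihood test, Benjamini-Hochberg over all 15482 genes). In this comparison 32.2% of all genes were called (16.2% higher, 16.0% lower). The median log2 difference of the members was -0.29, against 0.01 for all genes, and 82 of 83 lay below 0. Both subunits took part, with 23 of 33 small-subunit and 29 of 50 large-subunit genes lower. In 18 members all 5 mXTX301 libraries lay below all 5 vehicle libraries, where 9.33% of all genes did so (9.29% above, with 0 members).

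Rpl41, the smallest protein of the large subunit, had the lowest p. Its vehicle tumours at day 4 held 835, 827, 852, 683 and 1246 CPM, and its mXTX301 tumours 601, 567, 576, 591 and 617 CPM. The groups did not overlap, and the log2 difference was -0.59 (SE 0.10, adjusted p = 7.05e-05). Leaving out vehicle replicate 5 gave -0.44 (adjusted p = 5.44e-05).

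The stalk proteins, which recruit the elongation factors to the large subunit, moved alike. Rplp0, the stalk base, stood at 3528, 3552, 3627, 3386 and 5566 CPM in vehicle and 3158, 2946, 2619, 2984 and 3155 CPM with mXTX301 at day 4. All mXTX301 tumours lay below all vehicle tumours, with a log2 difference of -0.40 (SE 0.10, adjusted p = 0.00388). Its partners Rplp1 (-0.38, adjusted p = 0.00684) and Rplp2 (-0.36, adjusted p = 0.00868) also fell, while their groups overlapped. With that vehicle library left out the values were -0.25 for Rplp0 and -0.25 for Rplp1 (adjusted p = 0.0170 and 0.0362), and Rplp2 lost its call at -0.22 (adjusted p = 0.0501).

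In the small subunit, Rps28, a protein near the messenger exit, stood at 383, 382, 386, 357 and 577 CPM in vehicle and 289, 321, 301, 332 and 336 CPM with mXTX301. The groups were apart, at -0.40 (adjusted p = 0.00174), and -0.26 without vehicle replicate 5 (adjusted p = 0.00404). Lower too were Rpsa (-0.29), which also serves as a laminin receptor, Rps6 (-0.24), the substrate of S6 kinase, Rps19 (-0.27), mutated in Diamond-Blackfan anaemia, and Rps27a (-0.37), made as a fusion with ubiquitin. These 4 lost their calls without vehicle replicate 5, at -0.17, -0.16, -0.14 and -0.14 (adjusted p = 0.194, 0.162, 0.197 and 0.236). Rps3, which lines the messenger entry channel, was at -0.23 and did not pass (adjusted p = 0.113).

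In the large subunit Rpl18 was lower, at -0.42 (adjusted p = 0.00151), and Rpl13a, which interferon-gamma releases from the ribosome in myeloid cells, was at -0.33 (adjusted p = 0.0398). Of the pair that binds Mdm2, Rpl11 fell by 0.28 (adjusted p = 0.0253), and Rpl5 at -0.19 did not pass (adjusted p = 0.195). With vehicle replicate 5 left out Rpl18 was at -0.29 (adjusted p = 0.00597), while Rpl13a at -0.13 (adjusted p = 0.284) and Rpl11 at -0.16 (adjusted p = 0.148) lost their calls. Rpl10, which joins late in assembly, was at -0.13 (adjusted p = 0.284). Of the 20 members always named here, 12 fell and 8 did not pass.

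The count of members depended on 1 library. With vehicle replicate 5 left out, 18 members were lower, all of them among the 52, where 12.6% of all genes were lower, and the median difference was -0.16. Leaving out any other single library of the comparison gave 36 to 64. Without the libraries rich in skin markers 30 were lower, and without these and vehicle replicate 5, 11 were lower. These refits used fewer libraries. Apart from the refit without vehicle replicate 5 alone, no share of all genes stands beside their counts. Those other counts do not show whether members were lower more often than other genes. With all libraries, 26 of the 38 members with a pyrimidine run at the start and 14 of the 24 without one were lower, as were 25 of the 40 members that share more than 50% of their 50-base stretches and 27 of the other 42. These differences between kinds of member were not tested.

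**Figure D2:**
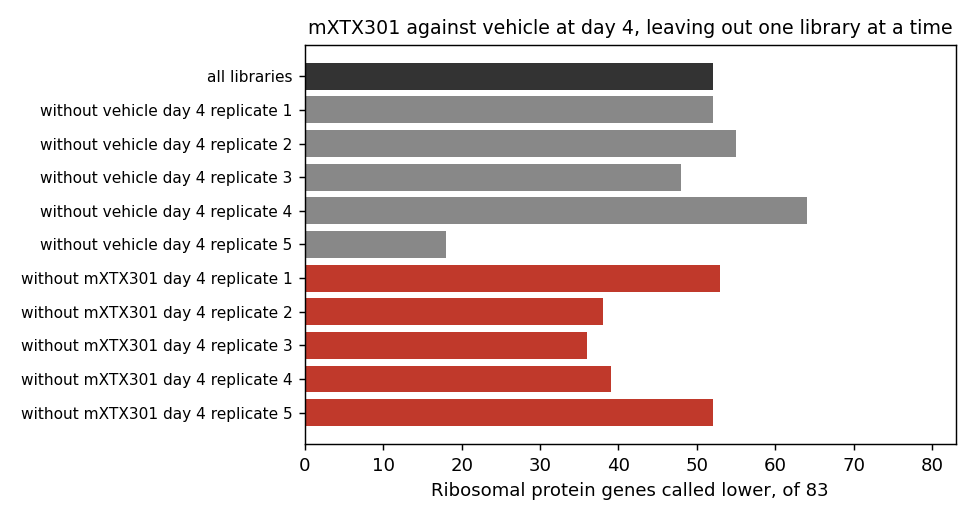
Number of the 83 ribosomal protein genes called lower with mXTX301 at day 4 (horizontal axis) with all libraries and with each library of the comparison left out; grey bars leave out a vehicle library and red bars an mXTX301 library. The count is 52 with all libraries and 18 without vehicle replicate 5.

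At day 7 the members no longer lay below vehicle with mXTX301. Of the 83 genes 13 rose and 3 fell, in a comparison where 48.4% of all genes were called (25.7% higher, 22.7% lower). The median difference was 0.12, against 0.02 for all genes. In 8 members all mXTX301 libraries lay above vehicle and in 2 below, where 16.5% and 14.2% of all genes did so. Both shares of members are below those of all genes.

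Rpl36a, a large-subunit protein near the exit site, had the lowest p among those that rose. It stood at 244, 234, 271, 235 and 281 CPM in vehicle and 281, 343, 298, 384 and 348 CPM with mXTX301 at day 7. The lowest mXTX301 tumour lay just above the highest vehicle tumour, and the log2 difference was 0.39 (SE 0.09, adjusted p = 0.00127). Rpl22, needed for the development of alpha-beta T cells, was at 0.39 (adjusted p = 0.00409), with 296 to 417 CPM in vehicle and 422 to 497 CPM with mXTX301. Rpl27a (0.37) and Rpl17 (0.34) rose as well. The 3 that fell were Rpl7l1, Rpl30 and Rps27, and the first of these is described below.

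Leaving out mXTX301 replicate 4 at day 7 left 8 members called, 6 of them higher, with no share of all genes beside that count. Without vehicle replicate 5 of day 4, which enters this comparison only through the normalisation and the shared estimate of spread, 21 rose and 8 fell, where 26.5% and 26.4% of all genes did so. Without it and the skin-rich libraries, 40 rose and 2 fell, where 23.8% and 20.5% of all genes did so.

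The unmasked control moved few members at day 4. None rose and 5 fell, where 22.4% of all genes were called (11.6% higher, 10.8% lower), and the median difference was -0.07, against -0.01 for all genes. In 4 members all unmasked control libraries lay below vehicle, where 6.54% of all genes did so (7.30% above). Those that fell were Rpl7l1 (-0.26), Rpl34 (-0.53), Rpl36al (-0.26), Rpl41 (-0.29) and Rps27 (-0.46). Once vehicle replicate 5 was left out the median turned to 0.08, and 3 members fell and 1, Rpl39, rose by 0.31. Rpl7l1, Rpl34 and Rpl36al fell in both fits, and Rpl41 at -0.14 (adjusted p = 0.139) and Rps27 at -0.34 (adjusted p = 0.143) lost their calls. Leaving out unmasked control replicate 1, 2 or 4 at day 4 left 3 called each.

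At day 7 of the unmasked control 3 rose and 6 fell, where 45.0% of all genes were called, (23.2% higher, 21.8% lower), with a median difference of -0.04 against 0.01. In 1 member the unmasked control libraries lay above vehicle and in 3 below, where 12.5% and 12.8% of all genes did so. Rplp0 was the most abundant of those that fell. Its vehicle tumours at day 7 held 3115, 3864, 3691, 3326 and 3426 CPM, and its unmasked control tumours 3150, 2800, 2698, 2676 and 2573 CPM. The groups overlapped by 1 library, and the log2 difference was -0.33 (adjusted p = 0.0111). Rpl7, Rpl18, Rps27, Rps27l and Rpl7l1 fell too, and Rpl36a (0.23), Rps4l (0.83) and Rpl39l (1.04) rose. Leaving out unmasked control replicate 4 left 3 called, replicate 5 left 4, and replicate 2 or vehicle replicate 2 left 5 each. Leaving out vehicle replicate 5 of day 4, 4 rose and 14 fell, where 23.9% and 25.8% of all genes did so.

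**Figure D3:**
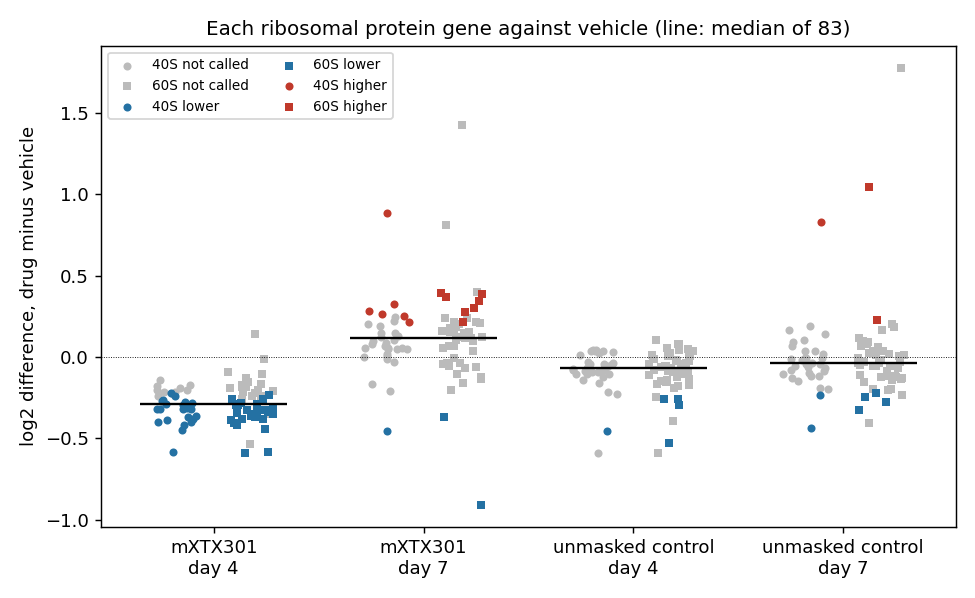
Log2 difference from vehicle (vertical axis) of each of the 83 ribosomal protein genes in the 4 drug comparisons; circles are small-subunit and squares large-subunit genes, blue is lower, red is higher, grey is not called, and the line is the median. The medians are -0.29, 0.12, -0.07 and -0.04 from left to right.

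Rpl7l1 and Rps27 were the only members lower in all 4 drug comparisons. Rpl7l1 is a relative of Rpl7 found in precursors of the large subunit rather than in finished ribosomes, and it lies at chr17:46773907-46782656 on the minus strand (mm10). It stood at 152, 150, 175, 155 and 144 CPM in vehicle and 137, 135, 123, 116 and 122 CPM with mXTX301 at day 4, and at 140, 118, 127.5, 127 and 136 CPM with the unmasked control. At day 7 it stood at 147, 161, 147, 158.5 and 141 CPM in vehicle, 109, 122, 120, 115 and 119 CPM with mXTX301, and 123, 128, 125, 117 and 130 CPM with the unmasked control. Every drug-treated library lay below every vehicle library of its day. The differences were -0.30 and -0.37 with mXTX301 (adjusted p = 0.000362 and 1.10e-05) and -0.26 and -0.28 with the unmasked control (adjusted p = 0.00183 and 0.00033), at day 4 and day 7. Unlike most members, vehicle replicate 5 at day 4 was its lowest vehicle tumour of that day.

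Rps27 is counted at 1.16 to 2.82 CPM. It was at -0.58, -0.45, -0.46 and -0.44 in mXTX301 day 4 and day 7 and unmasked control day 4 and day 7, with adjusted p = 0.00929, 0.0274, 0.0489 and 0.0345, of which the third was lost without vehicle replicate 5 at day 4 (adjusted p = 0.143). Its better counted paralog Rps27l, a p53 target, stood at 103, 99.2, 110, 96.4 and 157 CPM in vehicle at day 4 and 98.7, 90.7, 81.8, 78.0 and 85.6 CPM with mXTX301. These groups overlapped, at -0.38 (adjusted p = 0.00215). At day 7 with the unmasked control, Rps27l stood at 79.6 to 86.2 CPM, below all vehicle tumours at 92.3 to 110 CPM, a difference of -0.23 (adjusted p = 0.0364).

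Among the paralogs of restricted expression, Rps4l, an autosomal copy of the X-linked Rps4x, rose at day 7. It stood at 1.44, 1.79, 2.77, 1.85 and 2.52 CPM in vehicle, 3.68, 3.25, 3.24, 3.58 and 5.42 CPM with mXTX301, and 1.39, 4.57, 3.00, 5.10 and 4.39 CPM with the unmasked control. The mXTX301 tumours lay above vehicle, at 0.89 (adjusted p = 0.00738), and the unmasked control had 1 tumour below all of vehicle, at 0.83 (adjusted p = 0.0123). Rpl39l was higher with the unmasked control at day 7 by 1.04 (adjusted p = 0.0384), at 0.284 to 1.11 CPM against 0.187 to 0.450 CPM. Rpl3l was not called in any comparison and spanned 0.0349 to 2.26 CPM over all libraries. Skeletal muscle markers summed to 29.5 to 161 CPM in vehicle and 130 to 600 CPM with the unmasked control at day 7, where Rpl3l was at 1.78 (SE 0.90), and their part in that value was not tested. Rpl36al, the autosomal copy of Rpl36a, fell with both drugs at day 4 (-0.35 and -0.26) and was at -0.04 and -0.05 at day 7. Rpl22l1, the paralog of Rpl22, was called in none of the 4 drug comparisons, at -0.35 and 0.40 with mXTX301 (adjusted p = 0.127 and 0.0573).

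**Figure D4:**
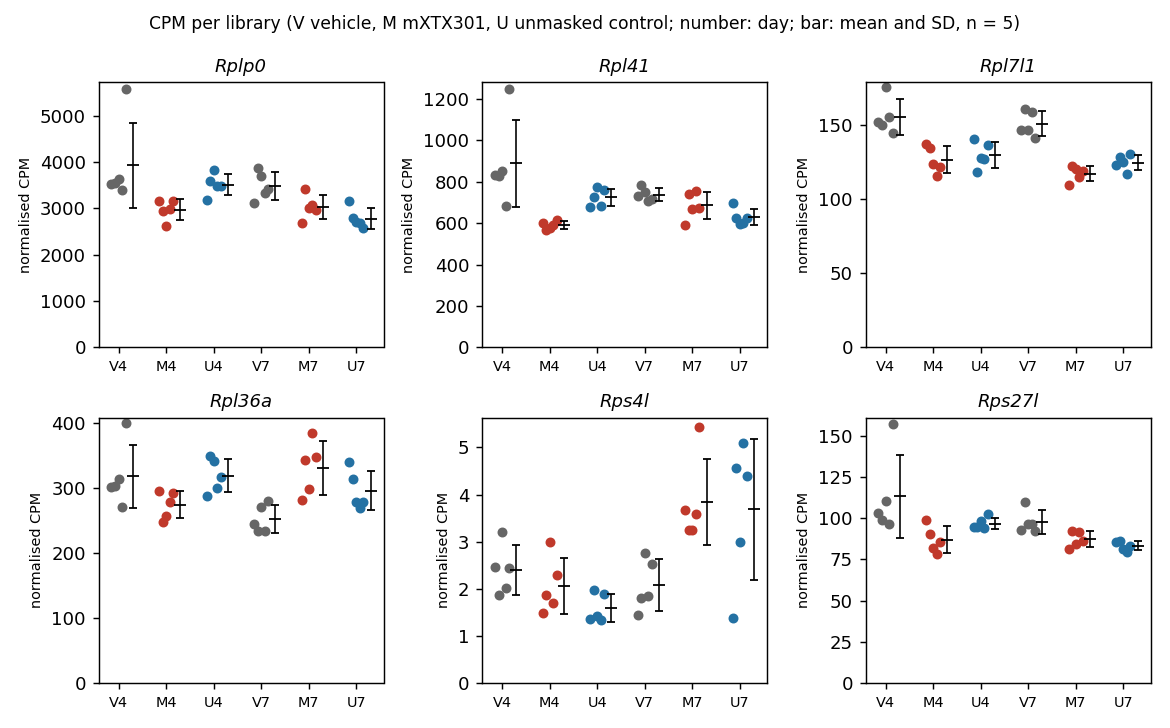
Normalised CPM per library (vertical axes, from 0) of 6 ribosomal protein genes in the 6 groups (V vehicle, M mXTX301, U unmasked control, with the day); points are libraries and bars the mean and SD of 5. Rpl7l1 is below vehicle in every drug-treated library, and Rpl36a at day 7 lies at 281 to 384 CPM with mXTX301 against 234 to 281 CPM in vehicle.

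Over the 4 drug comparisons 64 members were called at least once, 77.1%, and 19 never, while 65.3% of all genes tested were called at least once. The change of the mXTX301 difference between days was tested directly. It passed in 24 members, all toward higher at day 7, where 4.99% of all genes passed (1.95% toward higher, 3.04% toward lower), with a median change of 0.41 against 0.05 for all genes. Among them were Rpl36a (0.60, adjusted p = 0.0171), Rps12 (0.61), Rps20 (0.55) and Rpl27a (0.54). Rps20 and Rpl31 were lower at day 4 and higher at day 7, and without vehicle replicate 5 at day 4 their day 4 values of -0.18 and -0.13 did not pass (adjusted p = 0.120 and 0.253). This test is sensitive to single libraries, and leaving out 1 of the 20 gave 1 to 36 members. It gave 1 without vehicle replicate 4 at day 7 or without mXTX301 replicate 4 or 5 at day 7, 3 without mXTX301 replicate 1 or 4 at day 4, and 4 without vehicle replicate 1 at day 7 or mXTX301 replicate 2 at day 4. It gave 7, 10 and 13 without vehicle replicate 3, 1 and 5 at day 4, 8 without vehicle replicate 2 or mXTX301 replicate 2 at day 7, 12 without mXTX301 replicate 3 at day 4 and 15 without mXTX301 replicate 3 at day 7. In each of these fits no member changed toward lower. The share of all genes that passed in these fits is not given, so the counts do not show whether only the members shifted.

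For the unmasked control the change between days passed in 1 member, Rps4l (1.42, adjusted p = 0.0325), where 5.15% of all genes passed (2.95% toward higher, 2.20% toward lower). No member was called without vehicle replicate 1 or 3 at day 4 or 1, 2 or 4 at day 7, nor without unmasked control replicate 1, 3 or 4 at day 4 or 2, 4 or 5 at day 7. Leaving out vehicle replicate 3 or 5 or unmasked control replicate 1 at day 7 gave 2. With vehicle replicate 5 at day 4 left out, Rps4l was called and Rplp0 (-0.34), Rps26 and Rpl7a changed toward lower.

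The drugs were also compared with each other at their different doses. At day 4 no member passed, and no gene of the 15482 did (0%). The median difference, mXTX301 minus unmasked control, was -0.22, 80 of 83 lay below 0, and 53 had an unadjusted p under 0.05. The share of all genes with such a p is not given, so that count does not show that members stood out. The 95% interval was -0.45 to -0.03 for Rplp0 and -0.49 to -0.10 for Rpl41, so equal levels are not shown. DESeq2 likewise called 0 members. Without vehicle replicate 5, which enters only through the normalisation and the shared spread, 16 members were lower with mXTX301, led by Rps28 (-0.33), where 1.89% of all genes were lower. With the skin-rich libraries also left out, 0 were. At day 7 no member passed in edgeR or DESeq2 (0% of all genes in edgeR), and 75 of 83 lay above 0 with a median of 0.15. An unadjusted p under 0.05 was found in 11, again without the share of all genes beside it. The interval for Rplp0 was -0.08 to 0.34.

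Between days, all 83 members were lower at day 7 than at day 4 in vehicle tumours, with a median of -0.24 against 0.00 for all genes, and none passed in edgeR, where 0.0388% of all genes did (0.0194% higher, 0.0194% lower). Of the 83, 48 had an unadjusted p under 0.05, and DESeq2 called 6. Neither count has a share of all genes beside it, so they do not show that members stood out. Without vehicle replicate 5 at day 4 the median was -0.10 and 2 members, Rpl34 and Rpl36al, were lower. Leaving out vehicle replicate 2 or 4 at day 4, or 3 or 5 at day 7, gave 1, 4, 3 and 6 lower. With mXTX301, 5 rose from day 4 to day 7 (Rps29, Rpl37a, Rps4l, Rpl24 and Rpl27a), where 14.5% of all genes were called (7.88% higher, 6.60% lower), with a median of 0.17 against 0.03. With the unmasked control, 12 fell, among them Rpl21, Rplp0 and Rpl5, and 2 rose, Rps4l and Rpl39l, where 25.9% of all genes were called (14.4% higher, 11.5% lower), with a median of -0.21 against 0.03.

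The comparisons of days within a drug also shifted with single libraries. For mXTX301 none was left without replicate 1, 2 or 4 of day 4 or replicate 4 or 5 of day 7, and 3 without replicate 3 or 5 of day 4 or replicate 2 or 3 of day 7. For the unmasked control 35 and 36 were called without replicate 1 of day 4 and of day 7, and 3 to 9 without replicate 2 or 3 of day 4 or replicate 2, 3, 4 or 5 of day 7. No share of all genes stands beside these counts, so a shift of the members cannot be told from a shift of all genes. Without vehicle replicate 5 of day 4, 20 rose with mXTX301, where 9.77% of all genes rose. In the same fit 60 fell and 2 rose with the unmasked control, where 18.6% and 15.1% of all genes did so.

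The genes that surround ribosome production were counted in the same 4 comparisons, in the order mXTX301 day 4 and day 7, then unmasked control day 4 and day 7. In that order 16.0%, 22.7%, 10.8% and 21.8% of all genes fell, and 16.2%, 25.7%, 11.6% and 23.2% rose. Of 76 mitochondrial ribosomal protein genes, which build the separate ribosome of mitochondria, 72, 34, 31 and 43 fell, and 1, Mrpl23, rose with mXTX301 at day 7. Mrpl20 was at -0.48 and -0.36 with mXTX301. Their medians were -0.30, -0.17, -0.19 and -0.20. Without vehicle replicate 5 at day 4 the counts at day 4 were 53 and 17. The shares of all genes given for the lists are from the fit with all libraries. For this refit, here and in the lists below, no matching share stands beside the counts.

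Of 30 ribosome biogenesis genes 16, 19, 10 and 21 fell and none rose. Among them were Nop10 (-0.57 with mXTX301 at day 4) and Dkc1 (-0.44 with mXTX301 at day 7), both of the box H/ACA particles that modify ribosomal RNA, Nop58 (-0.45 with mXTX301 at day 7), of the box C/D particles, and Nip7 (-0.38 with the unmasked control at day 4). Without vehicle replicate 5 at day 4 the counts at day 4 were 15 and 12. Of 14 genes of RNA polymerase I and its factors, which transcribe ribosomal RNA, 6, 5, 4 and 7 fell, led by Polr1e (-0.35, -0.56, -0.34 and -0.47), and 1, 1, 1 and 0 rose.

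Of 21 translation factors and other transcripts with a TOP motif, 7, 2, 0 and 3 fell and 0, 5, 0 and 2 rose. Btf3 (-0.33) and Eef1d (-0.33) fell with mXTX301 at day 4, and Eif4a2, a helicase of the cap-binding complex, rose at day 7 with both (0.54 and 0.55). With vehicle replicate 5 left out, Btf3 was at -0.21, 4 of the list fell with mXTX301 at day 4, and 5 rose with the unmasked control at day 4. Of other proteins of the cytosolic ribosome, Fau (-0.36, adjusted p = 0.0120) fell with mXTX301 at day 4, Rack1 was at -0.25 (adjusted p = 0.0935), and neither passed in the other 3 comparisons. Fau lost its call without vehicle replicate 5, at -0.21 (adjusted p = 0.0690).

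Of 16 genes that control growth, 4, 4, 1 and 3 fell, where 16.0%, 22.7%, 10.8% and 21.8% of all genes fell. In the same order 2, 1, 2 and 1 rose, where 16.2%, 25.7%, 11.6% and 23.2% of all genes rose. Tsc1, a brake on mTOR, rose by 0.47 and 0.38 with mXTX301, and Akt1 was at -0.18 and -0.25. With vehicle replicate 5 left out, 2 fell and 1 rose with mXTX301 at day 4, and 1 fell and 3 rose with the unmasked control. Myc, the transcription factor that drives ribosome production, did not pass in any of the 4 (-0.07, -0.02, 0.03 and -0.14, adjusted p = 0.715, 0.928, 0.893 and 0.412). Of 11 genes of the p53 response 6, 5, 5 and 2 fell and 1, 1, 2 and 1 rose. Mdm2 rose in all 4 (0.40, 0.74, 0.37 and 0.73), while Bbc3 was at -0.55 and -0.61 with mXTX301 and the unmasked control at day 4. When vehicle replicate 5 was left out, the p53 list had 3 lower and 3 higher with the unmasked control at day 4. The 4 drug comparisons share their vehicle libraries within a day.

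**Figure D5:**
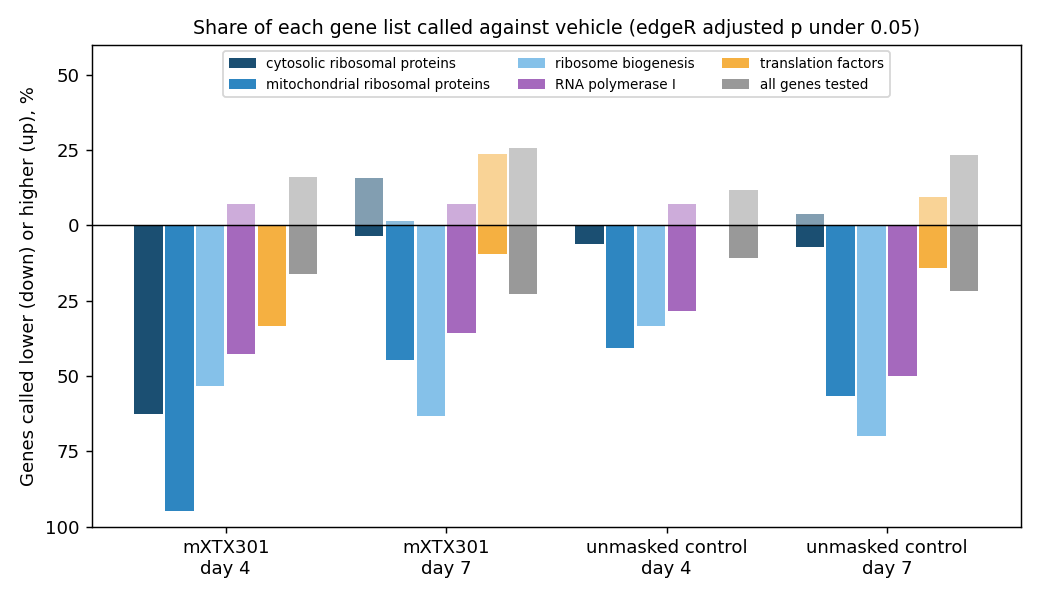
Percent of each gene list called lower (bars down) or higher (bars up, pale) against vehicle in the 4 drug comparisons, with all 15482 genes in grey. Mitochondrial ribosomal protein genes were lower in 72 of 76 with mXTX301 at day 4, and cytosolic ribosomal protein genes in 52 of 83.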

How the data were processed

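RNA-seq counts of 30 mouse tumours were used. The submitters' processing notes name STAR 2.7.10a and HTSeq 0.11.1 with build mm10, beside edgeR 3.34.0 and R 4.1.0, and cutadapt and FastQC 0.11.9. The deposited counts per gene were unnormalised. The authors' deposited log2 table (14875 genes) matched log2 CPM recomputed here with a prior count of 2 to within 0.000196 and was used only for that check. Of 24557 rows, 5 with a repeated symbol were dropped.

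Tests were edgeR 4.0.16 (R 4.3.3) quasi-likelihood F tests with robust dispersion, TMM factors and filterByExpr, with 1 mean per group over all 30 libraries. Adjusted p is Benjamini-Hochberg over 15482 genes, and p under 0.05 was called. CPM are TMM-normalised. The common biological coefficient of variation was 27.3%. Checks were also run on simulated data for mXTX301 against vehicle at day 4, with changed genes drawn from all those tested. Of 100 genes changed by a log2 of 0.5 in size, 44% were called, and of 100 changed by 1, 63%. Of all calls 6.14% were false. A gene that did not pass may thus still differ, and the rates need not hold for the members. DESeq2 1.42.0, RLE factors, factors without the members, no filter, a replicate block and left-out libraries were alternatives. Where a count of members from an alternative is given without the share of all genes, it does not show how members compare with other genes.

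The labels give 5 mice per group. Replicate numbers did not pair samples: over the 2000 most variable genes the mean correlation of deviations was 0.0465 for equal and -0.00421 for other numbers. Some genes that the rule selects are not reported here. Genes named were 20 fixed members, the 5 called members with the smallest p in each direction, called members across 0 from the median, and up to 4 genes per list. Rps2, Rpl30, Rpl34 and Rpl39 where not called, and genes given per library, were also chosen after their values were seen. Members, lists and rules were chosen with earlier results of these data known. Transcript lengths came from GENCODE vM21 and promoters from RefSeq.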

Additional observations from a re-analysis of the deposited data

Results flagged for a closer look

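In a group of 5 libraries a lone library was looked for by its gap to the nearest other over the group's range (above 0.71), over 108 values. Chance alone would mark a single value about 1 time in 20. The values come from the same libraries and are not independent, so that rate gives no measure of an excess. In all, 15 were marked. Of these, 10 fell on vehicle replicate 5 at day 4: a share of counts of 9.56% (the others 6.72% to 7.39%), a ratio of small-subunit to large-subunit counts of 0.706 (0.687 to 0.692), and CPM of 5566 for Rplp0, 1302 for Rpl18, 577 for Rps28, 4015 for Rps2, 157 for Rps27l, 590 for Rpl22, 134 for Rpl22l1 and 2.82 for Rps27. The others were Rps28 at 390 CPM and Rps27l at 110 CPM in vehicle replicate 2 at day 7, Rps27 at 1.98 CPM in mXTX301 replicate 1 at day 4, Rps4l at 5.42 CPM in mXTX301 replicate 5 at day 7, and Rpl41 at 696 CPM in unmasked control replicate 1 at day 7.

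The difference from vehicle itself changed between days in 24 members with mXTX301, among them Rpl36a (0.60), Rps12 (0.61), Rps20 (0.55) and Rpl27a (0.54), and in 1 with the unmasked control, Rps4l (1.42), by the interaction term in edgeR.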

How the results depend on the processing

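No named gene's called direction reversed under the alternatives run. The members' median for the unmasked control at day 4 went from -0.07 to 0.08 without vehicle replicate 5. At day 7 the unmasked control had 3 members higher and 6 lower. Without the skin-rich libraries and vehicle replicate 5 of day 4 it had 7 higher and 1 lower. The change of the unmasked control difference had 1 member toward higher, and without vehicle replicate 5 of day 4 also 3 toward lower. Of the counts of members called, these moved by more than 1.5 times. Without the skin-rich libraries the counts were 30 (mXTX301, day 4), 2 (unmasked control, day 4), 1 (unmasked control, day 7), and, day 7 against day 4, 2 (vehicle) and 0 (unmasked control), with 0 for the change of the unmasked control difference. Without these and vehicle replicate 5 at day 4, an alternative added after seeing the data, they were 11 and 42 (mXTX301, day 4 and day 7), 6, 30 and 1 (day 7 against day 4 in vehicle, mXTX301 and unmasked control), 40 for the change with mXTX301 and 0 with the unmasked control. Day 7 against day 4 gave 3 for mXTX301 under RLE factors, under factors without the members and with no low-count filter, and 23 for the unmasked control under factors without the members. With no filter the mXTX301 change gave 7. DESeq2 gave 6, 22 and 2 for day 7 against day 4 in vehicle and unmasked control and for the unmasked control change. Except where a share of all genes was given earlier, these counts stand without one. Alone they do not show whether members moved more than other genes. The day 7 vehicle share was 6.32% without the skin-rich libraries.

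Leaving out 1 library of the groups compared at a time gave 18 to 64 and 8 to 18 members for mXTX301 at day 4 and day 7, 3 to 6 and 3 to 12 for the unmasked control, 0 to 6, 0 to 5 and 3 to 36 for day 7 against day 4 in vehicle, mXTX301 and unmasked control, and 1 to 36 and 0 to 4 for the changes. The drugs against each other gave 0 throughout these. In comparisons that do not hold it, leaving out vehicle replicate 5 of day 4 gave counts beyond these ranges: 29 and 18 for mXTX301 and the unmasked control at day 7, 16 for the drugs at day 4, and 20 and 62 for day 7 against day 4 with mXTX301 and the unmasked control. Shares stayed at 7.12% to 7.83% in vehicle at day 4. The replicate block gave 46 and 17 members for mXTX301, 4 and 9 for the unmasked control, 0 and 0 for the drugs against each other, 0, 5 and 12 for day 7 against day 4 in vehicle, mXTX301 and unmasked control, and 20 and 1 for the changes. The same limit holds for the counts from the left-out libraries and from the replicate block. Own numbers were the best partner of 9 of 30 libraries. Counts under 100 limit Rpl3l, Rpl39l, Rpl30 and Rps27. More than 50% of the 50-base stretches of 40 members also occur in other genes, and the part of this in their counts was not tested.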
